A study of Homo sapiens with 9 samples.

Results

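The comparison described here set 3 libraries of HK-2 cells exposed to aristolochic acid (5 µg/ml for 48 h; replicates 1, 4 and 6) against 3 libraries of untreated HK-2 cells (replicates 1, 2 and 3), chosen by their treatment labels from 9 libraries in all. The remaining 3 libraries were from cells that also overexpressed MYDGF from an adenovirus. They entered the fit but not the contrast, and took part in the filter on low counts, the scaling and the estimate of spread between replicates. HK-2 is a line of human kidney cortex tubule cells transformed by human papillomavirus 16, so every sample here is 1 established line and none is tissue. The cells of all groups were grown in DMEM with 5% serum and starved of serum for 12 h before exposure. All 6 libraries were labelled wild type, and no vehicle or empty vector is named for the untreated cells. The treatment labels of untreated replicates 2 and 3 write HK-3 and HK-4 where the cell line field of the same samples writes HK-2, so they were treated as HK-2. Nothing states that the replicates were separate cultures, so p-values measure the spread between these libraries, which may be technical.

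Aristolochic acids are nitrophenanthrene carboxylic acids of Aristolochia plants that damage kidney tubules. Cells reduce the nitro group, and the product binds covalently to purine bases of DNA, mostly adenine. Bulky adducts of this kind stop RNA polymerase on the transcribed strand, are removed by nucleotide excision repair, or are bypassed by translesion polymerases. In the kidney, proximal tubule cells take the compound up through the organic anion transporters SLC22A6 and SLC22A8. Both genes had 0 counts in all 6 libraries.

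The 6 libraries held 10876572 to 13426617 counts. A gene with at least 1 count was seen for 25852 to 26012 genes in the untreated libraries and for 28527 to 30637 genes with aristolochic acid, so the groups did not overlap in this number although their depths did. The first principal component carried 83.1% of the variance and placed the untreated libraries between -86.5 and -83.9 and the treated ones at 61.7, 102.8 and 89.9 for replicates 1, 4 and 6. Markers of the proximal tubule, the segment the line comes from, were low. The summed level of 12 proximal tubule markers was 12.6 to 13.3 CPM (counts scaled to library size) untreated and 22.996 to 33.8 CPM treated, and 6 of the 12 were near silent, below 0.2 CPM untreated. The 5 general epithelial markers summed to 1080 to 1121 CPM untreated and 1575 to 1711 CPM treated. Of the 5, EPCAM, KRT8, KRT18 and KRT19 rose and CDH1 fell by 1.13 on the log2 scale. Markers of endothelium (4), leukocytes (4), podocytes (3) and the distal nephron (4) stayed at or below 12.4 CPM in sum, with each sum higher in every treated library. The podocyte sum was 2.60 to 3.41 CPM untreated and 6.32 to 7.96 CPM treated, nearly all of it from NPHS1, which rose by 1.27. PECAM1 rose from 0.475, 0.671 and 0.605 CPM to 5.02, 11.3 and 7.45 CPM, the B-cell gene CD79A rose from 0.238, 0.252 and 0.227 CPM to 3.40, 7.42 and 6.16 CPM, and the distal transporter SLC12A3 rose from 0.158, 0.168 and 0.151 CPM to 3.40, 6.03 and 7.73 CPM, while PTPRC, CD3E, KDR, UMOD, SLC12A1, AQP2 and WT1 were at or near 0 in every library. The 3 neuron markers summed to 24.4 to 31.6 CPM untreated and 23.4 to 27.2 CPM treated, the 2 muscle markers to at most 0.773 CPM, and of the 2 liver markers APOA1 rose from 0.475, 0.587 and 0.0757 CPM to 5.34, 9.97 and 7.91 CPM. PECAM1, CD79A, SLC12A3 and APOA1 were low enough untreated to pass the filter only through libraries with aristolochic acid, with or without MYDGF. The leukocyte marker CD14 went the other way, from 1.98, 2.43 and 2.72 CPM to 1.21, 1.47 and 1.56 CPM, and did not pass (log2 change -0.75). On the same strand as an active gene, 1 with at least 5 CPM untreated, CD79A begins 4.35 kb past RPS19 and CD14 5.04 kb past NDUFA2. APOA1 begins 5.78 kb past SIK3, SLC12A3 14.9 kb past NUP93 and PECAM1 64.0 kb past POLG2. NPHS1 overlaps an active gene on the other strand. The proximal tubule markers that rose, CUBN, GGT1, ANPEP and AQP1, begin 7.53, 12.8, 15.2 and 19.5 kb past one. The part of position in these changes was not tested. The 4 fibroblast markers summed to 10.2 to 12.8 CPM untreated and 8.28 to 14.3 CPM treated, with COL1A2 and DCN near 0. Single genes were sometimes carried by 1 library: 46 protein-coding genes had 1 library under 0.25 of both others in its group while those others were at 10 CPM or more, and 28 had 1 library over 4 times both others. Their part in the results below was not tested gene by gene, and the value of each library is given for the genes the results turn on.

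Aristolochic acid moved most of the measured genes. Of 19407 protein-coding genes in the table, 13704 passed the filter on low counts. Of those tested, 3887 rose (28.4%) and 4508 fell (32.9%) at an adjusted p below 0.05 in edgeR's quasi-likelihood test, so 61.3% changed. By at least 2-fold, 1473 rose (10.7%) and 1541 fell (11.2%). The 3 libraries of 1 group did not overlap the 3 of the other for 9259 genes (67.6%). The median log2 change of the tested protein-coding genes was -0.06. Rises and falls of 2-fold came from different levels, which the filter fixed in part. Genes with few untreated counts could pass it only through libraries with aristolochic acid, with or without MYDGF, which favoured rises. Of the 1473 rises, 341 were of genes below 0.2 CPM untreated, of which 344 were tested. Genes that rose had a median of 1.07 CPM untreated and 7.33 CPM treated, and 410 of the 1473 (27.8%) had at least 5 CPM untreated. Genes that fell had a median of 16.8 CPM untreated and 5.65 CPM treated, and 1173 of the 1541 (76.1%) had at least 5 CPM untreated. Over all 18267 tested genes, of every kind, 10779 changed (59%): 5418 rose (29.7%) and 5361 fell (29.3%).

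Gene lists are described below by how many tested members rose or fell, to be read against the 28.4% and 32.9% of all tested protein-coding genes. All log2 changes are of TMM-normalized counts, treated minus untreated, and all levels are in normalized CPM, given in the order of replicates 1, 2 and 3 untreated and 1, 4 and 6 treated. The lists differed in the share that rose and fell, and this description carries no test of 1 list against another. Members with few untreated counts could pass the filter only through libraries with aristolochic acid, with or without MYDGF, which favoured rises. Near-silent genes were 6 of the 444 tested ZNF genes, 21 of 265 solute carriers and 3 of 45 SLC25 carriers. They were 3 of 25 metallothioneins and zinc transporters, 2 of 40 potassium channels and 2 of 28 drug and organic ion transporters. Among HOX genes they were 2 of 31, and among TNF receptors and caspases 2 of 39. A few other lists also held some. Members somewhat above 0.2 CPM untreated, such as SLC22A14, were low enough for this as well, and their number is not given.

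**Figure D1:**
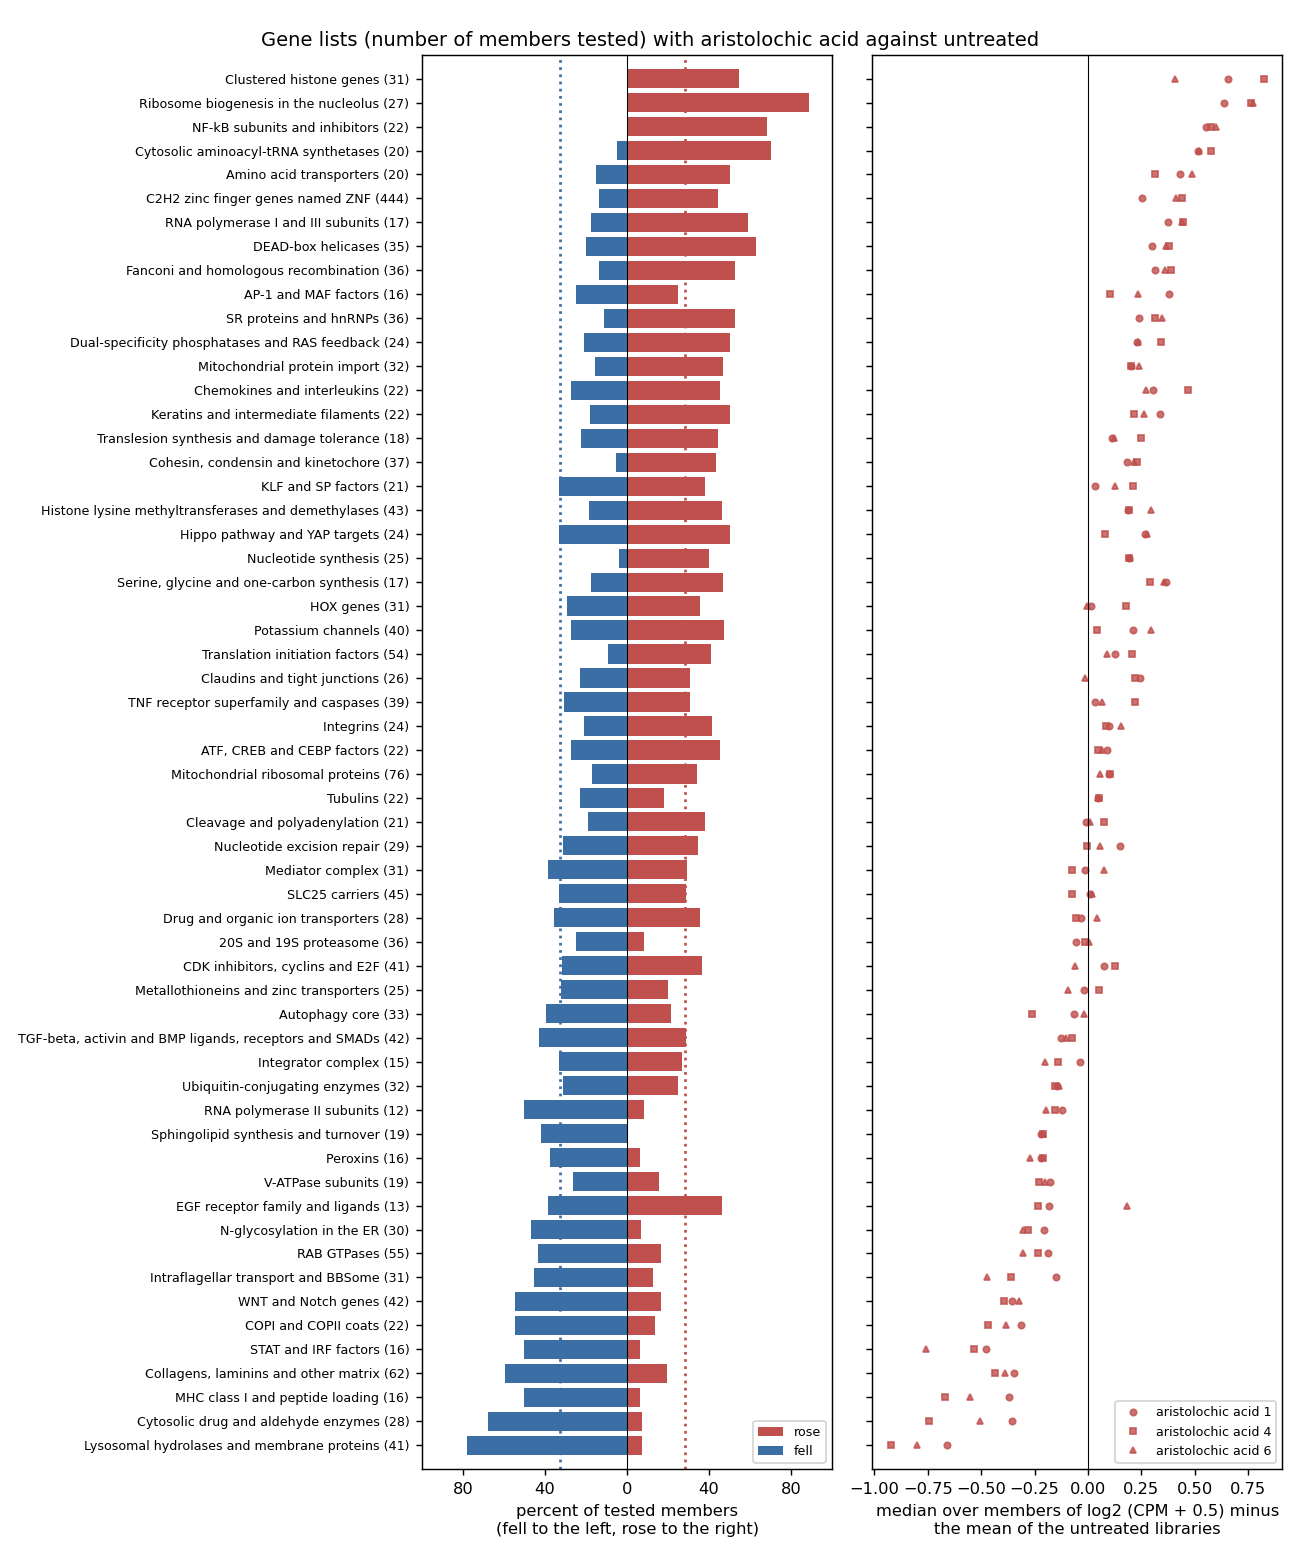
Reported gene lists with at least 10 tested members, ordered by the median log2 change of their members. The left panel gives the percent of tested members that fell (left of 0) and rose (right of 0), with dotted lines at the 32.9% and 28.4% of all tested protein-coding genes; the right panel gives, for each treated library, the median over members of log2 (CPM + 0.5) minus the mean of the untreated libraries. Histone, nucleolar, NF-kB and tRNA synthetase genes are at the top, and lysosomal, drug-metabolizing, MHC class I and matrix genes at the bottom.

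Most nucleolar genes for making ribosomes rose. Of 27 members tested of 28 in the table from the nucleolar ribosome biogenesis list, 24 rose and 0 fell, with a median log2 change of 0.73. RRP12, a 40S export and maturation factor, had 53.7, 55.1 and 55.9 CPM untreated against 149, 153 and 163 CPM treated (log2 change 1.497, SE 0.06, adjusted p = 2.6e-06). DDX21, a nucleolar RNA helicase, had 332, 332 and 332 CPM untreated against 775, 934 and 829 CPM treated (log2 change 1.35, SE 0.07, adjusted p = 3.8e-06). The treated libraries of both genes lay more than 2-fold above all untreated ones. NOP16 rose by 1.32, NOC3L by 1.22 and NOP56, a core protein of box C/D snoRNPs, by 0.73. FBL, the methyltransferase of the same particle, had 126, 127 and 118 CPM untreated against 152, 144 and 174 CPM treated, a difference that did not pass (log2 change 0.34, adjusted p = 0.085). The genes whose symbols begin with UTP, subunits of the small-subunit processome that handles the 5′ end of pre-ribosomal RNA, are described separately: 9 of 10 rose and none fell, with a median of 0.69, the third highest among 176 symbol families with at least 10 tested genes that were not near silent. UTP4 rose from 54.9, 52.7 and 49.3 CPM to 104, 126 and 119 CPM and UTP20 from 91.4, 88.7 and 80.9 CPM to 135, 172 and 187 CPM, while UTP3 had 41.9, 51.7 and 46.8 CPM untreated against 45.6, 54.9 and 53.3 CPM treated (log2 change 0.13, adjusted p = 0.27). Both UTP4 and UTP20 had all treated libraries above all untreated ones. Symbols beginning with RPS or RPL and a digit, mostly proteins of the ribosome itself, did not share these rises. Of 44 RPS genes 1 rose and 15 fell (median -0.14), and of 50 RPL genes 11 rose and 13 fell (median -0.05).

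Polymerase genes were counted by type. Of 17 members tested of 18 in the table of the RNA polymerase I and III list, which make ribosomal and transfer RNA, 10 rose and 3 fell. POLR1A, the largest subunit of polymerase I, rose from 83.3, 83.6 and 86.4 CPM to 121, 131 and 132 CPM (log2 change 0.60, SE 0.06, adjusted p = 6.4e-05), POLR1B rose by 0.804 and POLR3C by 1.31. POLR1G rose by 1.305 with 1 untreated library, replicate 3, at 8.096 CPM and the others at 17.5 and 18.04. POLR3G, an alternative subunit of polymerase III, fell by 1.35. Of the 12 RNA polymerase II subunits, all tested, 1 rose and 6 fell; the number of rises lay between 0 and 2 without any 1 library. POLR2L fell from 81.2, 81.3 and 85.3 CPM to 37.2, 36.9 and 40.3 CPM (log2 change -1.12, SE 0.09, adjusted p = 1.9e-05), with no overlap, and POLR2I, POLR2J, POLR2G and POLR2B fell, with log2 changes of -0.87, -0.41, -0.397 and -0.22. The largest subunit gene, POLR2A, had 3.88, 45.1 and 40.2 CPM untreated against 58.5, 68.7 and 66.6 CPM treated and did not pass (log2 change 1.12, adjusted p = 0.28); untreated replicate 1 alone was far below the rest. No test compared the polymerase lists with each other. Among DEAD-box RNA helicases, 22 rose and 7 fell of 35 tested (of 39 in the table). DDX21 rose by 1.35, DDX39A by 0.999, DDX10 by 0.84 and DDX1 by 0.41. The falls included DDX58, which encodes the viral RNA sensor RIG-I, by 1.47, and DDX60, an interferon-induced helicase, by 1.16.

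Genes that charge tRNA and bring amino acids into the cell rose more often than they fell. Of 20 cytosolic aminoacyl-tRNA synthetases, all tested, 14 rose and 1 fell (median 0.53), with 2 falls without untreated replicate 2. TARS1, the threonyl-tRNA synthetase, had 388, 393 and 375 CPM untreated against 783, 973 and 852 CPM treated (log2 change 1.17, SE 0.08, adjusted p = 6.3e-06), and CARS1, YARS1, SARS1 and AARS1 rose by 1.11, 1.03, 0.99 and 0.73. WARS1, the interferon-inducible tryptophanyl-tRNA synthetase, had 100.5, 115 and 129 CPM untreated against 109, 96.3 and 109.6 CPM treated and overlapping groups (log2 change -0.13, adjusted p = 0.29). Of 20 members tested of 22 in the table on the amino acid transporter list, 10 rose and 3 fell (median 0.503). SLC7A11, the cystine-glutamate exchanger, rose from 69.7, 69.4 and 71.95 CPM to 129.6, 165 and 151 CPM, and its partner chain SLC3A2 rose from 179.7, 207 and 193 CPM to 486, 409.8 and 455 CPM. SLC7A6 rose by 1.07 with treated replicate 6 at 114 CPM and the other treated libraries at 51.8 and 58.7, and SLC38A10 fell by 1.21. In serine, glycine and one-carbon synthesis 8 rose and 3 fell of 17 (median 0.16). SHMT2, MTHFD2, ASNS, MTHFD1L and PSAT1 rose by 0.86, 0.82, 0.81, 0.75 and 0.61, while PHGDH, the first enzyme of serine synthesis, had 150.3, 141 and 161 CPM untreated against 164, 134 and 146 CPM treated (log2 change -0.03, adjusted p = 0.83). Of 54 translation initiation factors tested of 56 in the table, 22 rose and 5 fell, or 8 without untreated replicate 1 (median 0.15). EIF5 rose by 1.23, EIF1 by 0.84, EIF2S1, the alpha subunit of eIF2, by 0.63, and the cap-binding EIF4E by 0.42. EIF2AK2, the interferon-induced kinase PKR, fell by 0.86 and EIF2B1 fell by 0.75.

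Most NF-kB genes and several secreted inflammatory mediators rose. Of 22 NF-kB subunits, inhibitors and regulators, all tested, 15 rose and 0 fell (median 0.69), with 1 fall without treated replicate 4. TRAF1, a signalling adaptor induced by NF-kB, had 18.9, 16.1 and 16.4 CPM untreated against 80.4, 159.6 and 118 CPM treated (log2 change 2.798, SE 0.22, adjusted p = 1.4e-05). TNFAIP3, the deubiquitinase A20 that limits the pathway, had 34.1, 35.2 and 35.6 CPM untreated against 131, 275 and 182 CPM treated (log2 change 2.49, SE 0.23, adjusted p = 3.0e-05). For both genes treated replicate 4 was the highest and replicate 1 the lowest of the treated libraries, and all were above the untreated ones. NFKBIE rose by 1.66 and CYLD by 1.603. NFKBIA, the inhibitor IkB-alpha, rose by only 0.25, from 153, 141 and 145 CPM to 153, 191 and 179.6 CPM, and treated replicate 1 lay level with the untreated libraries. RELA, the main transactivating subunit, had 117, 119 and 126 CPM untreated against 141, 71.7 and 126 CPM treated (log2 change -0.098, adjusted p = 0.78). Of 22 members tested of 55 in the table on the chemokine and interleukin list, 10 rose and 6 fell (median 0.29). CXCL8, the neutrophil-attracting interleukin-8, had 25.2, 23.6 and 24.7 CPM untreated against 165, 259 and 166 CPM treated (log2 change 3.01, SE 0.19, adjusted p = 5.4e-06). CSF2, the growth factor GM-CSF, had 0.475, 1.09 and 0.984 CPM untreated against 27.7, 62.9 and 43.5 CPM treated (log2 change 5.704, SE 0.41, adjusted p = 8.8e-06), and its nearest active gene upstream on its strand was 675 kb away. CXCL2 and IL11 rose by 2.13 and 1.89. CXCL1 had 21.5, 22.99 and 24.4 CPM untreated against 20.2, 29.7 and 22.4 CPM treated (log2 change 0.07, adjusted p = 0.72) and CCL2 stayed at or below 4.05 CPM in every library (log2 change 0.83, adjusted p = 0.053, and 0.029 without untreated replicate 1). The chemokines therefore did not move as one: CXCL8 and CXCL2 were up in every treated library and CXCL1, a close relative in the same cluster, overlapped between groups. Among TNF receptors and caspases, 12 rose and 12 fell of 39 tested. TNFRSF9, TNFRSF10D, TNFRSF12A and TNFRSF10B, the last a death receptor for TRAIL, rose by 2.39, 1.85, 1.77 and 0.94. CASP6 fell by 1.598.

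Individual bZIP transcription factors rose strongly while their families as a whole were split. Of 22 members tested of 25 in the table from the ATF, CREB and CEBP list, 10 rose and 6 fell. ATF3, a stress-induced repressor and activator, had 12.4, 16.02 and 13.8 CPM untreated against 160.2, 145 and 63.6 CPM treated (log2 change 3.13, SE 0.41, adjusted p = 1.8e-04); treated replicate 6 was the lowest of the 3. CREB5 had 3.88, 5.03 and 4.69 CPM untreated against 58.1, 68.5 and 70.6 CPM treated (log2 change 3.86, SE 0.13, adjusted p = 8.3e-07), CREB1 rose by 1.19, and CEBPD fell from 99.1, 92.95 and 94.1 CPM to 23.3, 27.05 and 25.8 CPM. ATF4 had 79.7, 87.6 and 73.9 CPM untreated against 85.6, 77.7 and 81.5 CPM treated (log2 change 0.02, adjusted p = 0.83); its output is regulated largely at translation, so its transcript level is not a measure of its activity. Of 16 members tested of 18 in the table from the AP-1 and MAF list, 4 rose and 4 fell. FOSL1, an AP-1 subunit, had 36.6, 35.99 and 31.1 CPM untreated against 134, 186 and 180.2 CPM treated (log2 change 2.27, SE 0.16, adjusted p = 8.8e-06), and FOS rose by 0.81 from a low level. JUN did not pass (log2 change 3.29, adjusted p = 0.092): its levels were 2.14, 29.1 and 30.6 CPM untreated and 281, 22.7 and 303 CPM treated, so untreated replicate 1 and treated replicate 4 each stood apart from their groups. NFE2L3 fell from 85.8, 86.8 and 97.1 CPM to 14.6, 12.1 and 13.4 CPM and NFE2L1, which drives proteasome genes, fell by 0.66. Among KLF and SP factors 8 rose (5 without untreated replicate 2) and 7 fell of 21 tested. KLF10 rose from 35.9, 32.5 and 33.2 CPM to 109, 187 and 152 CPM, and KLF7, by 1.41; KLF4 rose by 0.48, SP6 by 0.61, KLF9 fell by 0.62, and KLF6 had 123, 146 and 146 CPM untreated against 142, 99.4 and 94.3 CPM treated (log2 change -0.31, adjusted p = 0.11, and 0.0041 without treated replicate 1).

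Promoter sequences of 3 genes that rose are set beside these changes because each holds a motif counted below. The 250 bases before the start of CXCL8 (chr4:73740319-73740568, plus strand) held 1 AP-1 motif, those of ATF3 (chr1:212565157-212565406, plus strand) an ATF4-type element, and those of the histone gene H2BC11 (chr6:27132796-27133045, minus strand), described further on, an E2F motif. They are from RefSeq, build GRCh38.p14, and are written 5′ to 3′ along the gene's strand, with the motif in capitals. They are shown because each gene rose more than 2-fold and carries at least 1 of the motifs counted below. Only the motif named for each gene is in capitals. CCAAT, also counted below on both strands, occurs unmarked in the ATF3 and H2BC11 sequences.
CXCL8: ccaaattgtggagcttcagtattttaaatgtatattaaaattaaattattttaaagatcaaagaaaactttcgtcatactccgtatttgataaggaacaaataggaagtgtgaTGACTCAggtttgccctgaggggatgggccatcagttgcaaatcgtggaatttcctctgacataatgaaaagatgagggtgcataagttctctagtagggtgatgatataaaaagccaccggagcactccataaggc
ATF3: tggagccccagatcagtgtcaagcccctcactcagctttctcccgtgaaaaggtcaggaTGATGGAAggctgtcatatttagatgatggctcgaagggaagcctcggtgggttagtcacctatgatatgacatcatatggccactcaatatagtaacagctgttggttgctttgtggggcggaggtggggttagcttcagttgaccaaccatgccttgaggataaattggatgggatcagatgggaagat
H2BC11: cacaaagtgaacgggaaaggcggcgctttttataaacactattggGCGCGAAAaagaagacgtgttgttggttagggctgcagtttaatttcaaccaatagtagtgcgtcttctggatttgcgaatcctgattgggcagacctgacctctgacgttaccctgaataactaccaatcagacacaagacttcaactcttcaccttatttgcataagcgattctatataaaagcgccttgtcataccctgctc
The motifs begin 137, 191 and 205 bases before the start.

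Motifs were then counted in the 300 bases from 250 before to 50 after the start of 10793 tested genes with 1 entry in the promoter table, on both strands, and overlaps with other motifs were allowed. The AP-1 motif TGAGTCA was in 6.21% of the 854 genes that rose at least 2-fold, in 2.87% of the 1219 that fell at least 2-fold, in 2.91% of all 10793, and in 4.92% of all 27305 promoters in the table. The ATF4-type element TGATGNAA was in 3.28% of those rising, 1.15% of those falling, 1.60% of the tested genes and 3.67% of all promoters. Among all 2861 genes that rose by any amount, the shares were lower, 3.36% for AP-1 and 2.20% for the ATF4 element. The E2F motifs TTTCGCGC and TTTGGCGC stood in 2.80% of all rises, 1.99% of rises of 2-fold, 1.27% of all falls and 2.10% of the tested genes, and the 227 genes with an E2F motif had a median log2 change of 0.16 against -0.08 for the 10566 without. An NF-kB motif was in 0.937% of 2-fold rises, 0.328% of 2-fold falls and 0.602% of tested genes, which is 8, 4 and 65 genes. An interferon response motif (2.81% against 2.88% of tested genes), the sterol motif TCACCCCA (1.41% against 1.19%) and CCAAT (37.2% against 36.4%) were in about the same share of 2-fold rises as of all tested genes. A heat shock motif was in 6 of the 854, 0.703%, against 0.352%. These shares describe letters in a window and were not tested. For AP-1 and the ATF4 element the share in all 27305 promoters was above that in the tested genes, so part of the table outside the tested genes held these letters more often.

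Transcription factors of interferon signalling and genes of antigen presentation fell more often than they rose. Of 16 STAT and IRF genes, all tested, 1 rose and 8 fell (median -0.41), with 2 rises without untreated replicate 1. STAT2, a factor of type I interferon signalling, had 140.4, 111 and 152 CPM untreated against 45.1, 29.7 and 33.8 CPM treated (log2 change -1.89, SE 0.17, adjusted p = 2.8e-05). STAT6, STAT4 and IRF7 fell, with log2 changes of -1.198, -1.45 and -1.396. The exception was IRF1, a factor that NF-kB also induces, which rose from 49.7, 50.7 and 53.9 CPM to 87.5, 121 and 108 CPM (log2 change 1.04, SE 0.11, adjusted p = 6.2e-05). Of 16 members tested of 20 in the table on the MHC class I and peptide-loading list, 1 rose and 8 fell (median -0.47). The trimming peptidases ERAP1 and ERAP2 fell, with log2 changes of -1.08 and -0.84, the immunoproteasome subunit PSMB10 fell by 0.86, and the ubiquitin-like conjugating enzyme UBE2L6 fell by 0.93. B2M, the light chain of class I molecules, had 304, 292 and 255 CPM untreated against 347, 178 and 279 CPM treated (log2 change -0.08, adjusted p = 0.81). In the APOL cluster on chromosome 22, whose variants in APOL1 are known for kidney disease, APOL1 fell from 16.3, 17.4 and 24.6 CPM to 0.567, 1.004 and 1.01 CPM (log2 change -4.49, SE 0.35, adjusted p = 1.4e-05) and APOL2 fell from 51.6, 54.7 and 53.9 CPM to 14.3, 21.8 and 19.9 CPM. APOL3 rose from 2.85, 3.104 and 3.18 CPM to 3.89, 12.8 and 8.92 CPM (log2 change 1.48, SE 0.399, adjusted p = 0.01).

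Most lysosomal genes fell. Of 41 members tested of 42 in the table, 3 rose (5 without treated replicate 4) and 32 fell, with a median log2 change of -0.82 and library medians of -0.66, -0.92 and -0.80. CTSD, the aspartic protease cathepsin D, had 312, 291 and 364 CPM untreated against 133, 103 and 112 CPM treated (log2 change -1.47, SE 0.14, adjusted p = 3.9e-05). CTSH, an aminopeptidase cathepsin, had 20.8, 20.1 and 23.6 CPM untreated against 3.48, 2.86 and 3.86 CPM treated (log2 change -2.66, SE 0.15, adjusted p = 3.9e-06). The sulfatase ARSA and the iduronidase IDUA fell, with log2 changes of -2.14 and -2.12, and LAMP1, a major lysosomal membrane glycoprotein, fell by 0.63. PSAP, the precursor of the saposins and 1 of the most abundant transcripts, fell from 2852, 2840.1 and 3066 CPM to 1862, 1491 and 1619 CPM. MANBA, beta-mannosidase, rose from 15.9, 19.7 and 16.5 CPM to 35.1, 74.95 and 60.4 CPM (log2 change 1.71, SE 0.26, adjusted p = 4.2e-04). Of the 41 members, 11 lay tail to tail with an active gene, an arrangement described further on, and 10 of those 11 fell. Most members outside this arrangement fell too, and of all 2517 genes counted in it 46.0% fell. Of 19 members tested of 24 in the table among the proton pump subunits, 3 rose and 5 fell, with log2 changes of -0.61 for ATP6V0E1, -0.44 for ATP6V1D, 0.51 for ATP6V0A2 and 0.78 for ATP6V1E2, while ATP6V0A1 had 84.3, 82.7 and 98.2 CPM untreated against 91.6, 87.2 and 87.6 CPM treated (log2 change 0.01, adjusted p = 0.96). Of 33 members tested of 34 in the table from the autophagy core, 7 rose and 13 fell. MAP1LC3A, WIPI1 and ATG16L2 fell, with log2 changes of -1.37, -1.62 and -1.89, ULK1 fell by 0.305, and ATG5 rose by 0.91. SQSTM1, the cargo receptor p62, rose by 0.63 (from 420.4, 399 and 432 CPM to 806, 383 and 752 CPM), with treated replicate 4 below all untreated libraries and replicates 1 and 6 above them. In sphingolipid metabolism 0 rose (1 without treated replicate 1) and 8 fell of 19 tested. SMPD2, CERS4, SPHK2 and UGCG fell, with log2 changes of -1.45, -1.02, -0.89 and -0.598, CERS2 fell by 0.17, and SPTLC1 had 108, 103 and 130.3 CPM untreated against 132, 109 and 89.3 CPM treated (log2 change -0.05, adjusted p = 0.79).

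Genes of the secretory pathway fell more often than they rose. Of 22 COPI and COPII coat genes, all tested, 3 rose and 12 fell (median -0.41). COPG2 fell from 77.4, 79.5 and 78.5 CPM to 38.9, 23.9 and 26.9 CPM (log2 change -1.39, SE 0.16, adjusted p = 7.7e-05), SEC24D, PREB and SEC31A fell, with log2 changes of -0.97, -0.82 and -0.71, SEC23A fell by 0.44, and COPA fell by 0.22. Of 30 genes of N-glycosylation in the endoplasmic reticulum, 2 rose and 14 fell; the rises numbered 4 without treated replicate 1 and 1 without treated replicate 4, untreated replicate 1 or untreated replicate 2. DDOST, a subunit of the oligosaccharyltransferase, fell from 383, 368 and 335 CPM to 269, 220.4 and 201 CPM, and ALG12, OST4, ALG6 and OSTC fell, with log2 changes of -0.82, -0.796, -0.74 and -0.66; RPN1 of the same enzyme had 323, 346 and 363 CPM untreated against 341, 313 and 316 CPM treated (log2 change -0.09, adjusted p = 0.21). Genes of later sugar modification were among the lowest symbol families. Of 12 tested CHST sulfotransferases, 8 fell and none rose, with a median of -0.98, the lowest of 176 families. CHST12, a chondroitin sulfotransferase, fell from 83.4, 71.6 and 40.1 CPM to 17.8, 13.4 and 15.5 CPM and CHST15 from 206, 197 and 209.9 CPM to 125, 103 and 108 CPM; CHST3 had 212, 215 and 222 CPM untreated against 247, 214 and 237 CPM treated (log2 change 0.11, adjusted p = 0.17, and 0.031 without treated replicate 4). The symbols that begin with B and a digit are mostly beta-1,3- and beta-1,4-glycosyltransferases, together with B2M, B9D1 and B9D2; 16 of the 29 that were not near silent fell and none rose (median -0.63). B4GALT7 and B3GALT6, which build the linker that ties glycosaminoglycan chains to proteins, fell from 13.8, 17.1 and 16.2 CPM to 4.94, 4.02 and 4.599 CPM and from 65.1, 66.9 and 64.4 CPM to 20.7, 13.7 and 17.1 CPM. Of 55 members tested of 63 in the table among RAB GTPases, 9 rose and 24 fell (median -0.23). RAB26 fell from 10.9, 10.7 and 10.97 CPM to 0.162, 0.695 and 0.644 CPM (log2 change -4.42, SE 0.41, adjusted p = 3.0e-05), RAB3D, a regulator of secretory granules, and RAB40B fell, with log2 changes of -2.03 and -1.28, and RAB33B rose by 1.48. RAB10 had 192, 185 and 189 CPM untreated against 191, 187 and 179 CPM treated (log2 change -0.02, adjusted p = 0.73) and RAB11A 101, 208 and 174 CPM untreated against 174, 162 and 119 CPM treated (log2 change -0.09, adjusted p = 0.82). Most proteasome genes did not pass: 3 rose (1 without untreated replicate 1) and 9 fell of 36 tested (median -0.02), with PSMB5, PSMD11 and PSMD6 among the falls at log2 changes of -0.68, -0.61 and -0.51, PSMA1 at 119, 119 and 118 CPM untreated against 112, 126 and 123 CPM treated (log2 change 0.02, adjusted p = 0.87) and PSMA2 at 108, 103 and 139.97 CPM untreated against 98.3, 65.7 and 89.6 CPM treated (log2 change -0.47, adjusted p = 0.083).

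Extracellular matrix genes fell more often than they rose. Of 62 members tested of 85 in the table, 12 rose and 37 fell (median -0.42). COL6A2, a chain of the microfibrillar collagen VI, had 226, 218 and 226 CPM untreated against 54.8, 43.1 and 48.1 CPM treated (log2 change -2.197, SE 0.12, adjusted p = 4.1e-06). FN1, fibronectin, had 36.9, 42.2 and 38.3 CPM untreated against 13.7, 10.4 and 14.3 CPM treated (log2 change -1.62, SE 0.12, adjusted p = 1.2e-05). The basement membrane chains COL4A5, COL4A4 and COL4A1 fell, with log2 changes of -2.16, -1.94 and -0.37. COL7A1, the anchoring fibril collagen, rose from 6.26, 4.698 and 3.63 CPM to 92.3, 143 and 116 CPM (log2 change 4.59, SE 0.28, adjusted p = 5.4e-06); its start lies 3.67 kb past the 3′ end of the active gene UQCRC1 on the same strand. Of 24 members tested of 30 in the table among integrins, 10 rose and 5 fell. ITGB1, the most abundant, fell from 1731, 1849 and 1913 CPM to 1333, 1229 and 1076 CPM, ITGA1 fell by 1.73, and ITGA3 had 733, 719 and 711 CPM untreated against 687, 639 and 685 CPM treated (log2 change -0.104, adjusted p = 0.084). The integrins that rose most started from low levels: ITGA10 went from 1.27, 1.17 and 0.757 CPM to 21.7, 38.5 and 31.8 CPM, ITGA9 from 3.57, 4.61 and 3.33 to 16.1, 27.9 and 22.9, and ITGAM, a leukocyte integrin, from 0.872, 0.419 and 0.908 to 14.8, 11.7 and 12.5. ITGA9 begins 85.2 kb past the active gene GOLGA4 on the same strand. Keratins rose more often than they fell: of 22 members tested of 27 in the table on the intermediate filament list, 11 rose and 4 fell. KRT8 rose from 559.6, 592 and 588 CPM to 1001, 987 and 872 CPM, KRT80 rose from 166, 225 and 159 CPM to 599, 354 and 514 CPM, KRT86 rose by 1.83 from a low level, JUP fell by 1.03, and VIM had 567, 579 and 579 CPM untreated against 568, 765 and 571 CPM treated (log2 change 0.14, adjusted p = 0.47). KRT86 overlaps another active gene on its strand, so its reads are uncertain. Tight junction genes were split, 8 rose and 6 fell of 26 tested. CLDN1 and TJP1 rose by 0.48 and 0.41, CLDN15 rose by 1.69 and begins 0.638 kb past the active gene FIS1, and TJP3, CLDN3 and CLDN23 fell, with log2 changes of -2.36, -1.27 and -1.23.

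Growth factor pathways were counted one by one. WNT and Notch genes fell more often than they rose: of 42 members tested of 58 in the table, 7 rose and 23 fell (median -0.37). TCF7, a DNA-binding partner of beta-catenin, had 7.77, 12.4 and 10.7 CPM untreated against 1.13, 1.004 and 1.29 CPM treated (log2 change -3.17, SE 0.34, adjusted p = 5.8e-05). FZD4, a WNT receptor, HES4, a Notch target, and WNT2B fell, with log2 changes of -1.503, -1.45 and -1.62, CTNNB1 fell by 0.303, and NOTCH1 had 30.99, 32.5 and 26.6 CPM untreated against 35.95, 34.4 and 52.8 CPM treated (log2 change 0.45, adjusted p = 0.064, and 0.049 and 0.0405 without treated replicates 1 and 4). Genes of feedback on RAS and MAP kinases rose more often than they fell, 12 rose and 5 fell of 24 tested of 30. DUSP1, a phosphatase of stress-activated kinases, rose from 114, 111 and 110.5 CPM to 283, 309 and 278 CPM (log2 change 1.38, SE 0.06, adjusted p = 2.6e-06), SPRY4 rose by 1.74 and DUSP6 by 0.39; DUSP18 and DUSP9 fell, with log2 changes of -2.14 and -1.14. In the EGF receptor family the receptor EGFR and its ligand HBEGF rose by 0.696 and 1.29, ERRFI1, an inhibitor of the receptor, rose by 1.05, and ERBB3 and NRG2 fell, with log2 changes of -1.18 and -0.93 (6 rose and 5 fell of 13 tested). On the Hippo and YAP list 12 rose and 8 fell of 24 tested. ANKRD1, known as a target of YAP, rose from 126, 132 and 128 CPM to 501, 617 and 555 CPM (log2 change 2.12, SE 0.08, adjusted p = 2.4e-06), CCN1 from 271, 269 and 222 CPM to 505, 571 and 635 CPM and CCN2 from 96.05, 102 and 98.2 CPM to 177, 193 and 232 CPM, while TEAD3 fell by 1.897. Of 42 members tested of 44 in the table in the TGF-beta and BMP pathways, 12 rose and 18 fell. The ligand TGFB1 fell from 88.4, 88.3 and 88.7 CPM to 50.6, 36.7 and 45.8 CPM and its mediator SMAD3 rose from 241, 240.2 and 239.8 CPM to 387, 427 and 432 CPM. LTBP1, which stores the latent ligand in the matrix, fell by 1.49, ACVR2B rose by 1.403 with untreated replicate 3 at 2.12 CPM and the others at 11.1 and 13.6 CPM, GDF9 rose by 1.76 from a low level, and GDF11 is described with the largest falls.

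**Figure D2:**
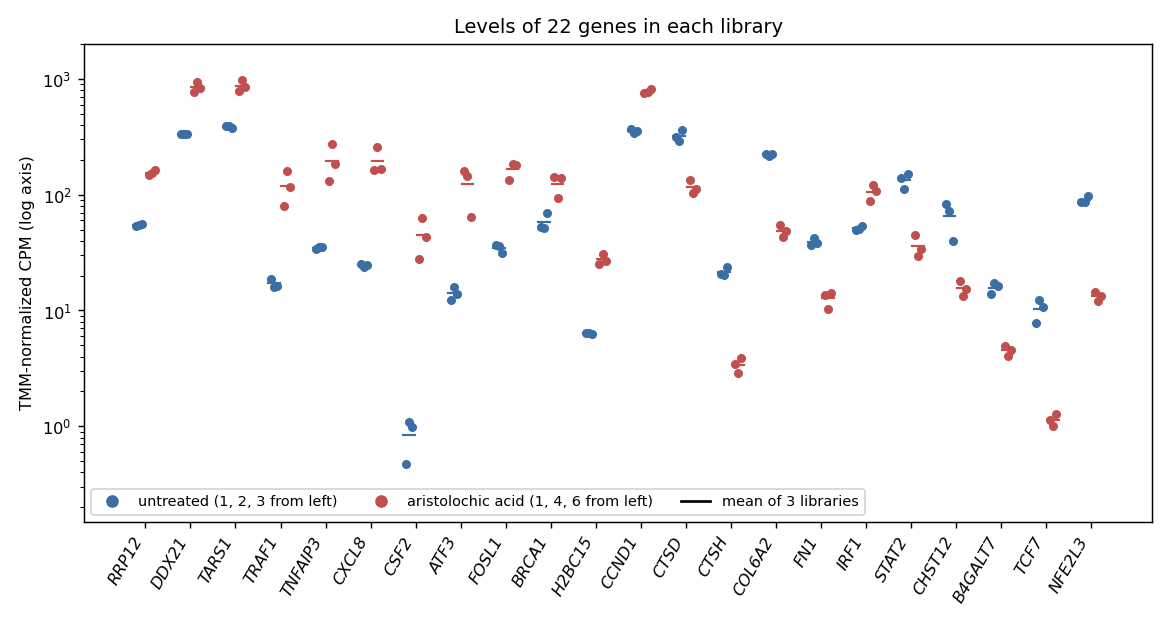
Normalized CPM (log axis) of 22 genes named in the text in each library, with untreated libraries in blue, aristolochic acid libraries in red and a line at the mean of 3. For all 22 genes the 3 treated points lie on one side of the 3 untreated points, from RRP12 and CSF2 (higher) to TCF7 and NFE2L3 (lower). The 22 were picked from genes that passed, and groups did not overlap for 67.6% of all tested protein-coding genes. Named genes with overlapping groups, such as JUN, RELA and SQSTM1, are not shown.

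Repair genes were counted by pathway. Of 36 genes of the Fanconi and homologous recombination list, all tested, 19 rose and 5 fell (median 0.34). BRCA1 had 52.9, 51.2 and 69.8 CPM untreated against 142, 93.3 and 139 CPM treated (log2 change 1.11, SE 0.21, adjusted p = 0.0014), RAD51AP1 rose by 1.097 and FANCD2, the monoubiquitinated hub of crosslink repair, by 0.69; XRCC3 and RAD54L fell, with log2 changes of -1.31 and -1.17. Of 18 genes of translesion synthesis and damage tolerance, 8 rose and 4 fell, or 2 without treated replicate 4 or untreated replicate 3. RAD18, the ligase that ubiquitinates PCNA, rose from 37.96, 37.5 and 35.6 CPM to 71.9, 95.7 and 87.5 CPM, REV3L, the catalytic subunit of polymerase zeta, by 0.95, ATAD5 by 1.04 and POLK by 0.39. POLI fell by 0.597 and POLH had 77.6, 80.5 and 74.9 CPM untreated against 81.5, 68.6 and 73.2 CPM treated (log2 change -0.06, adjusted p = 0.53). Of 29 nucleotide excision repair genes, 10 rose and 9 fell. DDB2, a damage-binding protein, rose from 17.4, 17.2 and 16.04 CPM to 36.8, 30.2 and 27.4 CPM and ERCC6, which acts at stalled polymerases, by 0.34. XPC, the other damage sensor, fell from 66.5, 70.6 and 71.8 CPM to 51.4, 49.4 and 50.1 CPM, the helicase ERCC2 fell by 0.91, CETN2 fell by 1.08 and LIG3 fell by 1.27. Chromosome segregation genes mostly rose or did not pass: of 37 on the cohesin, condensin and kinetochore list, 16 rose and 2 fell, with 5 falls without treated replicate 1 and 4 without replicate 6. CENPU rose from 24.8, 29.4 and 29.9 CPM to 56.3, 57.3 and 55.1 CPM, CENPQ and ZWINT by 0.805 and 0.66, NCAPG and SMC1A by 0.35 and 0.21, and CENPA, the centromeric histone, fell by 0.74. In nucleotide synthesis 10 rose and 1 fell of 25, with 0 to 2 falls without any 1 library. IMPDH2, PPAT, UMPS and RRM1 rose by 1.25, 0.64, 0.59 and 0.57, while RRM2 and TYMS, whose levels follow S phase, had 205, 127 and 120.0 CPM untreated against 142, 116 and 117 CPM treated (log2 change -0.26, adjusted p = 0.25) and 219.7, 212 and 220.3 CPM untreated against 229, 203 and 217 CPM treated (log2 change -0.01, adjusted p = 0.93). Cell cycle regulators were split, 15 rose and 13 fell of 41 tested. CCND1, cyclin D1, had 369.6, 343 and 351 CPM untreated against 757, 766 and 809.5 CPM treated (log2 change 1.13, SE 0.05, adjusted p = 2.9e-06), CDK6 rose by 1.53, and CDKN1A, the inhibitor p21, rose from 70.1, 69.9 and 76.6 CPM to 122, 112 and 110.4 CPM (log2 change 0.67, SE 0.23, adjusted p = 0.033); leaving out any 1 of the 6 libraries gave an adjusted p of 0.053 to 0.088. MYC rose from 7.05, 6.29 and 7.87 CPM to 12.6, 20.2 and 64.7 CPM (log2 change 2.19, SE 0.74, adjusted p = 0.029), with treated replicate 6 far above the other treated libraries, and its adjusted p was 0.14 without that library. MXD3 and MXD4, antagonists of MYC at shared sites, fell, with log2 changes of -1.89 and -1.75.

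Most tested histone genes of the clusters rose. Of 31 members tested of 66 in the table in the histone clusters, 17 rose and 0 fell (median 0.76). H2BC15 had 6.42, 6.38 and 6.28 CPM untreated against 25.3, 30.7 and 26.9 CPM treated (log2 change 2.12, SE 0.14, adjusted p = 6.0e-06). H2BC11, whose promoter is printed above, had 1.51, 2.097 and 1.82 CPM untreated against 8.83, 8.11 and 7.73 CPM treated (log2 change 2.18, SE 0.16, adjusted p = 1.1e-05), H2BC6 rose by 2.02 and H4C14 by 1.301. H1-2 had 96.5, 98.3 and 103 CPM untreated against 107, 112 and 88.7 CPM treated (log2 change 0.05, adjusted p = 0.69). Canonical histone messages end in a stem-loop and mostly lack a poly(A) tail; no source used here says whether these libraries were selected for poly(A), and the genes are near-identical copies, so the level of a single histone gene is uncertain. H2BC6 begins 0.71 kb past H2BC5 and H2BC11 13.6 kb past H2BC12, both active and on the same strand. Histone lysine methyltransferases and demethylases rose more often than they fell, 20 rose and 8 fell of 43 tested. EZH2, the Polycomb methyltransferase, rose from 104, 103 and 101 CPM to 147, 159 and 157 CPM and KDM6B, which removes its mark, from 46.8, 45.4 and 67.3 CPM to 114, 121 and 117 CPM; KDM1B, KMT5C and SETD1B fell, with log2 changes of -1.24, -0.88 and -0.86.

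Splicing factors and zinc finger genes rose more often than they fell, while complexes around RNA polymerase II were split. Of 36 members tested of 40 in the table among SR proteins and hnRNPs, 19 rose and 4 fell (median 0.32), with 2 falls without treated replicate 6. SRSF3 had 271, 261 and 268 CPM untreated against 572, 591 and 651 CPM treated (log2 change 1.18, SE 0.08, adjusted p = 6.0e-06), and SRSF7, TRA2A and SRSF6 rose by 1.29, 1.02 and 1.002; SRSF10 and SRSF1 rose by 0.35 and 0.25. These genes carry exons that lead to decay of the message when included, and gene-level counts do not separate those forms. Of 444 members tested of 506 in the table among C2H2 zinc finger genes named ZNF, most of them KRAB-domain repressors in clusters, 197 rose and 61 fell (median 0.45). ZNF850 rose from 15.1, 12.7 and 14.8 CPM to 89.6, 114 and 109 CPM and ZNF699 from 14.1, 13.1 and 11.8 CPM to 72.8, 88.5 and 79.3 CPM, with no overlap between groups; ZNF442, ZNF844 and ZNF100 rose by 2.94, 2.39 and 1.05 from low levels, and ZNF10 had 7.61, 3.27 and 6.88 CPM untreated against 12.6, 6.18 and 12.2 CPM treated (log2 change 0.79, adjusted p = 0.085, and 0.026 without treated replicate 4). In the Mediator complex 9 rose and 12 fell of 31 tested: MED10 and MED1 rose by 1.12 and 0.43, and MED11, MED7 and MED21 fell, with log2 changes of -1.07, -0.96 and -0.94. In the Integrator complex, which processes small nuclear RNAs and ends short transcripts, 4 rose (2 without treated replicate 4, untreated replicate 2 or untreated replicate 3) and 5 fell of 15: INTS8, INTS10 and INTS1 fell, with log2 changes of -0.77, -0.76 and -0.73, and INTS2 rose by 0.72. In the machinery that cleaves the 3′ end of messages, 8 rose and 4 fell of 21, with 2 falls without treated replicate 6. PCF11, which couples cleavage to termination, rose from 78.7, 78.7 and 69.8 CPM to 118, 144 and 139 CPM, FIP1L1 and CSTF3 rose by 0.602 and 0.56, CPSF3, the endonuclease, fell from 72.1, 76.8 and 77.5 CPM to 57.4, 53.4 and 49.1 CPM, and CPSF4 fell by 1.06. HOX genes, 11 rose and 9 fell of 31 tested, had HOXB9 rising by 1.49 and HOXC8 by 0.84, and HOXA5, HOXC13 and HOXA10 falling at log2 changes of -1.06, -0.90 and -0.49.

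Nuclear genes for mitochondria were counted by list. Protein import genes rose more often than they fell: of 32 members tested of 34 in the table, 15 rose and 5 fell, a number of falls that was 3 without treated replicate 6. TIMM44, a part of the import motor, rose from 59.04, 57.2 and 58.5 CPM to 129, 164 and 147 CPM (log2 change 1.33, SE 0.101, adjusted p = 1.2e-05), TOMM20, TIMM23 and TIMM9 rose by 0.34, 0.42 and 0.99, and DNAJC19 fell by 2.09. TIMM23B, a near copy of TIMM23, rose by 1.07, and reads may be shared by the pair. Mitochondrial ribosomal proteins had 26 rises and 13 falls among 76 tested (median 0.09). MRPL1 rose by 0.95, MRPS14 and MRPL41 fell, with log2 changes of -1.25 and -1.19, MRPL10 had 40.9, 28.5 and 21.5 CPM untreated against 27.5, 26.6 and 62.6 CPM treated (log2 change 0.36, adjusted p = 0.39), and MRPL42 rose with treated values of 167, 137 and 46.2 CPM, the last inside the untreated range of 36.9 to 50.2. Of 45 members tested of 48 in the table among SLC25 carriers, which move metabolites across the inner membrane, 13 rose and 15 fell. SLC25A11, the oxoglutarate carrier, fell from 54.8, 52.9 and 52.7 CPM to 12.96, 14.9 and 13.6 CPM, SLC25A1, the citrate carrier, fell by 1.596 and SLC25A35 fell by 1.86, SLC25A10 had 16.2, 13.5 and 14.3 CPM untreated against 12.1, 13.2 and 14.9 CPM treated (log2 change -0.13, adjusted p = 0.4), and SLC25A34 rose by 3.203 from a low level, 1.49 kb past PLEKHM2. Among peroxins 1 rose and 6 fell of 16, with PEX10, PEX11A and PEX7 falling at log2 changes of -2.47, -0.97 and -0.82.

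On a list mostly of enzymes that reduce, conjugate or oxidize foreign compounds, 19 fell and 2 rose of 28 tested (median -0.51). The list also holds AHRR, which is not an enzyme. AKR1C3, an aldo-keto reductase, fell from 8.40, 8.39 and 9.68 CPM to 2.59, 2.01 and 2.30 CPM and GSTM3, a glutathione transferase, from 41.1, 46.6 and 46.1 CPM to 21.6, 17.5 and 17.6 CPM. NQO1, a quinone reductase that can reduce the nitro group of aristolochic acid, fell from 382, 362 and 397 CPM to 338, 260.1 and 267 CPM (log2 change -0.401, SE 0.101, adjusted p = 0.007). Both rises were of genes of the aryl hydrocarbon receptor response. CYP1A1 rose from 6.34, 6.63 and 8.096 CPM to 22.3, 20.2 and 24.6 CPM (log2 change 1.67, SE 0.24, adjusted p = 3.0e-04) and AHRR, the receptor's repressor, from 13.9, 5.45 and 11.5 CPM to 64.9, 38.6 and 101 CPM (log2 change 2.72, SE 0.40, adjusted p = 3.5e-04), which begins 6.74 kb past PDCD6. Of 25 members tested of 32 in the table among metallothioneins and zinc transporters, 5 rose and 8 fell: SLC39A13 fell from 42.5, 42.4 and 38.4 CPM to 5.75, 4.64 and 5.33 CPM, MT1X fell by 0.96, the metal-sensing factor MTF1 rose by 0.996, MT2A had 254, 252 and 270.5 CPM untreated against 272, 295 and 258 CPM treated (log2 change 0.09, adjusted p = 0.6), and SLC30A10, near silent in untreated cells, rose from 0.317, 0 and 0.227 CPM to 12.96, 21.8 and 23.2 CPM, 9.58 kb past EPRS1.

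Ciliary transport genes fell more often than they rose, and channels and transporters were split. Of 31 intraflagellar transport and BBSome genes, 4 rose and 14 fell (median -0.35). IFT27, IFT122, BBS9 and BBS12 fell, with log2 changes of -1.22, -0.55, -1.06 and -1.06, IFT140 had 25.3, 26.7 and 28.4 CPM untreated against 23.97, 17.2 and 23.3 CPM treated (log2 change -0.32, adjusted p = 0.062, and 0.041 without treated replicate 1), and KIF17 rose by 2.34, 1.71 kb past SH2D5. Among tubulins 4 rose and 5 fell of 22 tested. TUBB4A, TUBD1 and TUBG2 fell, with log2 changes of -1.23, -0.82 and -0.75, TUBA1A fell by 0.41, TUBB2B rose by 0.897, and TUBA1B had 919.7, 1108 and 855 CPM untreated against 991, 986 and 1102 CPM treated (log2 change 0.09, adjusted p = 0.42). Of 40 members tested of 95 in the table among potassium channels, 19 rose and 11 fell. KCNJ14 and KCNH3 rose by 3.09 and 2.599 from low levels, and KCNK15 fell from 26.9, 28.5 and 32.7 CPM to 8.99, 6.80 and 6.07 CPM. KCNJ14 overlaps an active gene on its strand and KCNH3 one on the other, and KCNH3 begins 11.6 kb past SPATS2. Among drug and organic ion transporters 10 rose and 10 fell of 28 tested of 44. SLC22A14 had 0.158, 0.839 and 0.151 CPM untreated against 23.6, 35.8 and 31.8 CPM treated (log2 change 6.31, SE 0.45, adjusted p = 9.3e-06) and begins 26.8 kb past OXSR1, SLCO2A1 rose by 0.96, and SLC22A18, SLC22A17 and SLC22A23 fell, with log2 changes of -2.37, -1.82 and -1.32. ABCB1, the efflux pump P-glycoprotein, was near silent untreated and reached only 0.567, 1.004 and 0.552 CPM. Of 400 olfactory receptor genes 397 did not pass the filter. The other 3 rose, and they passed through libraries with aristolochic acid, with or without MYDGF, which favoured rises. OR7D2, 1 of them, went from 0.317, 0.336 and 0.605 CPM to 8.502, 14.1 and 14.6 CPM, 15.6 kb past ZNF317. OR5AU1 had 0 counts in the untreated libraries and 5.43, 15.8 and 14.4 CPM treated, 50.1 kb past HNRNPC. Over all solute carriers, 81 rose and 94 fell of 265 tested of 373 (median -0.01); the transporter SLC2A9 rose from 0.555, 1.01 and 0.681 CPM to 8.502, 26.3 and 16.4 CPM, 13.2 kb past WDR1. Ubiquitin-conjugating enzymes were split, 8 rose (5 without untreated replicate 2) and 10 fell of 32 tested, with UBE2J2 and UBE2V2 rising by 0.89 and 0.76, UBE2Q2 and UBE2A falling at log2 changes of -0.96 and -0.49, and UBE2C at 121, 113 and 111 CPM untreated against 134, 121 and 127 CPM treated (log2 change 0.15, adjusted p = 0.25).

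The most abundant genes went both ways. The 10 most abundant protein-coding genes that rose were EEF2, HSP90AB1, ACTB, MYH9, AHNAK, HNRNPA2B1, PLEC, CAVIN1, KPNB1 and ACTG1, with log2 changes from 0.25 to 0.75. EEF2, the elongation factor, had 2912, 2898 and 2910.3 CPM untreated against 3702, 3309 and 3612 CPM treated, and AHNAK, a giant scaffold protein, had 1006, 1034 and 1028 CPM untreated against 1492, 1755 and 1927 CPM treated. The 10 most abundant that fell were 7 genes of the mitochondrial genome (MT-CO1, MT-ND4, MT-CO3, MT-CO2, MT-CYB, MT-ND5 and MT-ND1), PSAP and the glycolytic enzymes GAPDH and PKM. Of the mitochondrial genes, MT-CYB, MT-CO3, MT-ND5, MT-CO2, MT-ND4, MT-ND1 and MT-CO1 fell, with log2 changes of -0.896, -0.89, -0.85, -0.75, -0.59, -0.52 and -0.52, and PSAP fell by 0.82. GAPDH fell from 2074, 2427 and 2189.7 CPM to 1542, 1339 and 1597 CPM and PKM from 1791, 1592 and 1731 CPM to 1567, 1406 and 1559.7 CPM. GAPDH and ACTB, both common reference genes, therefore moved in opposite directions here, with log2 changes of -0.58 and 0.303.

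Among genes that were active before treatment, with at least 5 CPM untreated, the largest rises were a mixed set, chosen for naming after their values were seen. EPPK1, a keratin-binding cytolinker, had 5.94, 5.96 and 4.99 CPM untreated against 137, 199 and 200.1 CPM treated (log2 change 4.99, SE 0.24, adjusted p = 3.4e-06). GADD45A, a stress sensor induced by DNA damage, had 27.5, 29.9 and 28.1 CPM untreated against 189, 397 and 273 CPM treated (log2 change 3.33, SE 0.23, adjusted p = 8.3e-06). PLEKHA6, SPTBN5, MYH3, FCGBP, DOK3, KRBA2 and ZDHHC11 rose by 3.61, 3.38, 3.23, 3.07, 3.01, 2.89 and 2.83, besides ATF3, CXCL8 and ZNF850 above. Of these 12 genes, DOK3 begins 0.303 kb past DDX41, KRBA2 0.812 kb past RPL26 and SPTBN5 1.88 kb past EHD4. MYH3 begins 15.2 kb past SCO1, PLEKHA6 18.8 kb past PPP1R15B and EPPK1 36.7 kb past PLEC. GADD45A, CXCL8, ATF3, FCGBP, ZNF850 and ZDHHC11 had no active gene upstream on their strand within 100 kb. SPTBN5 and ZNF850 overlap an active gene on the other strand and ZDHHC11 one on its own strand, so their reads are uncertain.

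The largest rises of all came from genes that were close to silent in untreated cells, and most of them lay downstream of an active gene. Most of these genes could pass the filter only through libraries with aristolochic acid, with or without MYDGF, which favoured rises. Of the genes with a mean of at least 5 CPM over the 6 libraries and at least 0.2 CPM untreated, the 10 that rose most were NRXN2, EFCAB8, FAM83E, NUP210L, MAP7D2, PKD1L1, CYP2C19, CHD5, GP5 and PYGM, with log2 changes of 6.39 to 7.41. Their known functions lie in neurons (NRXN2, CHD5), sperm (NUP210L), platelets (GP5), muscle (PYGM) and liver (CYP2C19). CHD5 (chr1:6101787-6180321, minus strand) had 0.872, 1.17 and 0.908 CPM untreated against 58.1, 138 and 101 CPM treated, and its start lies 4.70 kb past the 3′ end of RPL22. FAM83E (chr19:48599961-48615076, minus strand) had 0.396, 0.252 and 0.227 CPM untreated against 27.1, 44.2 and 39.2 CPM treated, 0.252 kb past RPL18. NUP210L (chr1:153992685-154155116, minus strand) had 0.0792, 0.168 and 0.605 CPM untreated against 21.8, 45.1 and 37.3 CPM treated, 0.192 kb past TPM3. NRXN2 (chr11:64606174-64723197, minus strand) had 0.238, 0 and 0.378 CPM untreated against 16.2, 57.5 and 39.3 CPM treated and PYGM (chr11:64746389-64759974, minus strand) 0.475, 0.419 and 1.44 CPM untreated against 43.1, 83.9 and 75.1 CPM treated, and they follow each other 41.4 and 4.63 kb past SF1. EFCAB8, MAP7D2, PKD1L1 and GP5 begin 8.52 kb past MAPRE1, 7.62 kb past EIF1AX, 14.8 kb past HUS1 and 3.41 kb past ATP13A3. CYP2C19 was the exception, 149 kb past HELLS. In all of these genes treated replicate 1 was the lowest of the treated libraries and replicate 4 the highest, and every treated library was far above every untreated one. Positions are on GRCh38, in the coordinates of the deposited table, with the strand from GENCODE release 29, and an active gene is one with at least 5 CPM untreated.

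The near-silent genes, 5332 protein-coding genes below 0.2 CPM untreated, gave 341 of the 1473 rises of 2-fold (23.2%). They could only pass the filter through libraries with aristolochic acid, with or without MYDGF. Their shares are therefore given over all near-silent genes, tested or not. The 8 with the highest treated level were STAB1, ACTL7B, DNAH10, TDRD12, ARHGAP30, LCT, PLA2G4F and GARIN4. STAB1 (chr3:52495338-52524495), a scavenger receptor of endothelium, had 6 counts untreated and 1419 treated, 2.27 kb past NISCH. LCT (chr2:135787850-135837184), intestinal lactase, had 3 and 783 counts, 2.44 kb past MCM6. PLA2G4F, 2.07 kb past VPS39, had 0 and 735 counts, ARHGAP30, 30.6 kb past PFDN2, 0 and 790, and GARIN4 0 and 728. GARIN4 begins 3.70 kb past ATF3, the gene that itself rose strongly. ACTL7B had 1 and 988 counts, TDRD12 2 and 864, 5.96 kb past NUDT19, and DNAH10 5 and 913, 0.433 kb past ATP6V0A2. STAB1 and DNAH10 also overlap an active gene on the other strand, and without a stated strand setting their reads cannot be told apart from that gene's.

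The share of near-silent genes that rose at least 2-fold differed by the end of the nearest active gene they lay at. Among all 5311 near-silent genes with a known strand it was 6.38%. Past the 3′ end of an active gene within 10 kb and on the same strand, 77 of 179 rose, 43.0% (95% Wilson interval 36.0 to 50.3). Of 206 genes before a 5′ end on the same strand 15.05% rose, and of 333 past a 3′ end on the opposite strand 8.11%. Before the 5′ end on the opposite strand, where the pair points apart, it was 1.68% of 119 (0.462 to 5.92). With the nearest active gene 10 to 100 kb away it was 7.66% of 1906, with none within 100 kb 0.906% of 2097, and with an overlap 7.86% of 471. Summed over the 179 genes past a 3′ end, the level was 9.67, 8.56 and 9.23 CPM in the untreated libraries and 263.8, 596.4 and 455.0 CPM in treated replicates 1, 4 and 6. The genes were chosen for low untreated levels, which fixes that the untreated sums are the lower ones. A test of these sums could therefore not be informative, and none is reported. Leaving out treated replicate 1 or any untreated library raised the share past a 3′ end to between 52.0% and 54.2%, and without treated replicate 4 or 6 it was 43.0% and 44.1%. Before a 5′ end on the opposite strand the share then lay between 2.52% without treated replicate 4 or 6 and 7.56% without untreated replicate 2. Of the treated libraries replicate 1 had the lowest sum in every class.

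**Figure D3:**
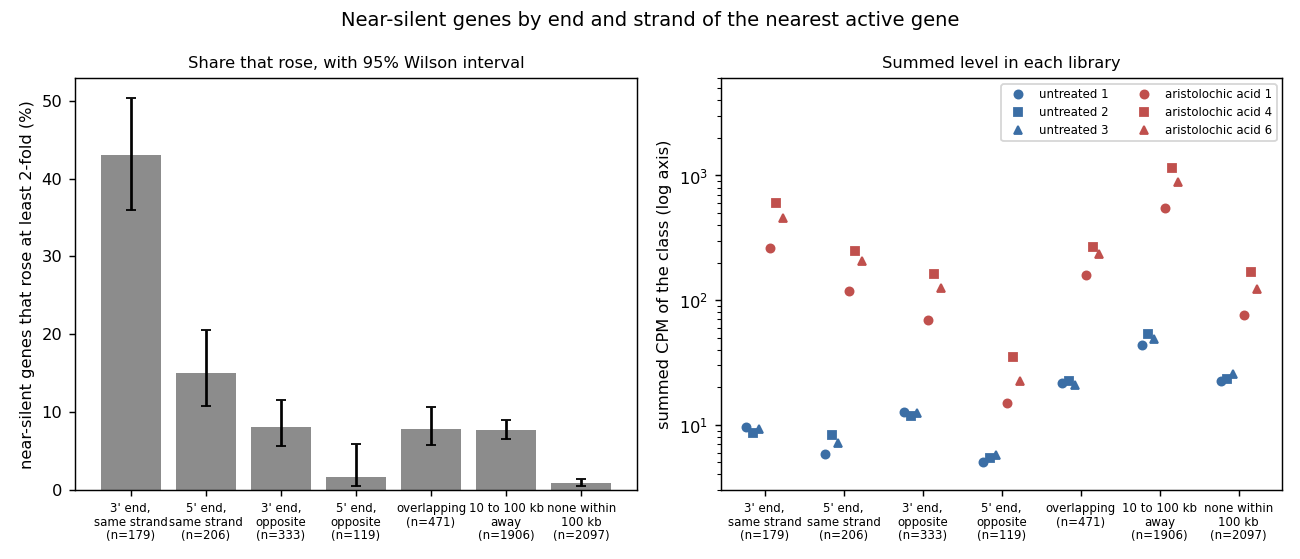
Near-silent protein-coding genes by the end and strand of the nearest active gene within 10 kb, with the number of genes in each class. The left panel gives the percent that rose at least 2-fold with the 95% Wilson interval, 43.0% past a 3′ end on the same strand against 1.68% before a 5′ end on the opposite strand; the right panel gives the summed CPM of each class in each library on a log axis; the choice of genes with low untreated levels places the untreated libraries lowest.

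The share of near-silent genes that rose was lower the farther away the upstream gene ended. Taking the nearest active gene that ends upstream on the same strand, 46.5% of 129 near-silent genes rose when it ended within 5 kb, 42.1% of 95 at 5 to 10 kb, 35.3% of 167 at 10 to 20 kb, 20.8% of 356 at 20 to 50 kb and 6.92% of 448 at 50 to 100 kb. Per length, in the deposited FPKM, the near-silent genes within 5 kb reached a median of 3.51%, 8.79% and 6.44% of their upstream gene in treated replicates 1, 4 and 6, and 0% in each untreated library. At 50 to 100 kb the medians were 0%, 0.393% and 0%. The upstream genes of the 100 that rose within 10 kb had a median of 50.1 CPM untreated, and those of the 124 that did not pass had 29.1 CPM. Genes that were not near silent showed the same gradient at low levels of their own. At 1 to 5 CPM untreated, 98 of 209 genes (46.9%) rose at least 2-fold with an active same-strand gene ending within 10 kb upstream, 107 of 407 (26.3%) with one at 10 to 100 kb and 66 of 644 (10.2%) with none. At 5 to 20 CPM the shares were 12.5%, 7.65% and 5.52%. At 20 to 100 CPM they were 2.99%, 3.44% and 3.37%, and at 100 CPM or more 1.17%, 1.66% and 1.91%. These shares over genes not near silent were chosen for description after the data were seen.

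Of the 10 largest falls 7 lay tail to tail with an active gene, here 1 with a mean of at least 5 CPM over the 6 libraries, on opposite strands with their 3′ ends facing each other. The 10 genes that fell most were PLPPR3, CD302, SLC29A4, APOL1, RAB26, GDF11, NANOS1, KDELR3, CYB5D2 and MICOS13. PLPPR3 (chr19:812488-821955, minus strand), a membrane protein of neurons, had 42.2, 38.3 and 33.2 CPM untreated against 0.324, 0.695 and 0.552 CPM treated (log2 change -6.15, SE 0.39, adjusted p = 5.9e-06). Its annotated end lies 161 bases from that of PTBP1, a splicing repressor at 396, 406 and 501 CPM untreated that rose by 0.49. GDF11 (chr12:55743122-55757264, plus strand), a TGF-beta family ligand, had 37.8, 32.9 and 35.8 CPM untreated against 1.70, 1.78 and 1.66 CPM treated (log2 change -4.37, SE 0.30, adjusted p = 7.7e-06) and its end overlaps that of SARNP. NANOS1 and KDELR3 overlap the ends of EIF3A and DDX17 by 60 and 9 bases, SLC29A4 that of TNRC18 by 122 bases and CD302 that of MARCHF7. KDELR3, a retrieval receptor of the secretory pathway, had 53.02, 47.6 and 55.99 CPM untreated against 3.32, 3.17 and 3.403 CPM treated (log2 change -3.98, SE 0.23, adjusted p = 4.5e-06), and CD302 and SLC29A4 fell, with log2 changes of -4.905 and -4.53. MICOS13, a mitochondrial cristae protein, fell from 42.2, 36.7 and 39.5 CPM to 3.56, 2.32 and 2.76 CPM with its end 9.94 kb from that of SAFB. NANOS1, APOL1, RAB26 and CYB5D2 fell, with log2 changes of -4.32, -4.49, -4.42 and -3.83; the last 3 had no such neighbour, though CYB5D2 overlaps an active gene on the other strand.

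This arrangement was then counted over 11159 protein-coding genes with a mean of at least 5 CPM, a description chosen after the largest falls had been seen. Of the 20 largest falls 15 (75%) lay tail to tail with an active gene within 10 kb, against 22.6% of all. Among genes that fell at least 2-fold 40.7% did, and among those that rose at least 2-fold 15.7%. The 1227 genes whose only active neighbour within 10 kb was tail to tail had a median log2 change of -0.26; 47.4% fell and 17.0% fell at least 2-fold. The 1216 whose only neighbour was head to head had a median of 0.00, with 28.0% falling and 6.497% falling at least 2-fold, and of all 11159 genes 34.6% fell and 9.38% fell at least 2-fold. In the 3 treated libraries the tail-to-tail median was at -0.21, -0.31 and -0.26 relative to the untreated mean, and its difference from the head-to-head median was -0.25, -0.31 and -0.23, against -0.0068 to 0.0057 in the untreated libraries, whose own mean was the reference. Tail to tail, the share falling at least 2-fold was 7.82% where the neighbour's untreated CPM was up to 0.25 of the gene's own and 33.0% where it was over 8 times. Head to head it was 7.14% and 9.83% at these ends, with a highest value of 15.1% between. The tail-to-tail share falling by any amount was 41.2% and 50% at these ends, and the share rising at least 2-fold was 1.18% and 17.6% tail to tail and 1.06% and 15.6% head to head. CPM is not per length, so these ratios compare reads and not molecules. The protocol does not state whether counting used strand. Where ends overlap and strand was not used, reads of both genes cannot be told apart, and genes whose ends were 1 to 10 kb apart fell by 2-fold in 18.4% (1 to 3 kb) and 14.4% (3 to 10 kb) of cases, against 18.6% of those up to 1 kb apart, 20.2% of those overlapping by up to 1 kb and 15.5% of those overlapping by 1 to 10 kb.

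**Figure D4:**
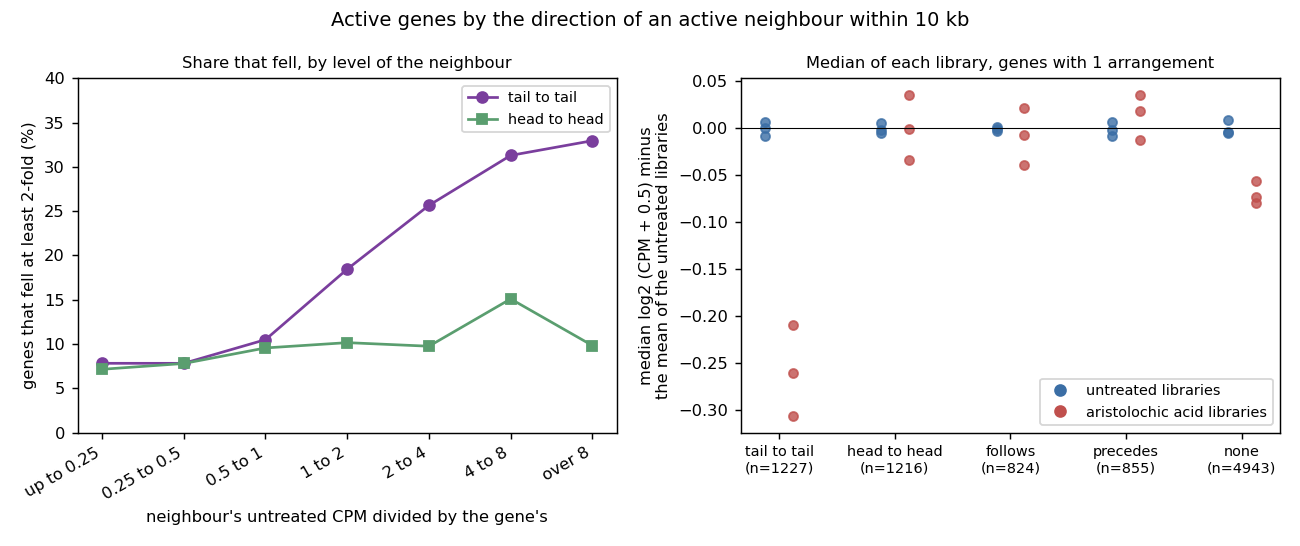
Protein-coding genes with a mean of at least 5 CPM by their arrangement with an active gene (mean of at least 5 CPM over the 6 libraries) within 10 kb. The left panel gives the percent that fell at least 2-fold against the ratio of the neighbour's untreated CPM to the gene's, rising from 7.82% to 33.0% tail to tail and staying at or below 15.1% head to head; the right panel gives the median of log2 (CPM + 0.5) minus the untreated mean in each library for genes with 1 arrangement only, with the 3 treated libraries at -0.21 to -0.31 tail to tail.

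The shortest and the most GC-rich genes fell more often than genes over all. Genes not near silent were ranked by span and by GC and put into 10 bins of equal size. The shortest bin, spanning up to 5.89 kb, had a median log2 change of -0.27, and 42.9% of it fell and 19.6% rose. The eighth bin, from 66.3 to 99.7 kb, was the highest at 0.03, and the longest bin, over 164 kb, was at -0.11 with 35.1% falling. By GC percent of the longest transcript, known for 99.6% of these genes, the lowest bin was at -0.01 and the highest, 62.3 to 74.5% GC, at -0.37 with 48.3% falling and 19.99% rising. All 3 treated libraries showed both gradients, and replicate 4 the steepest over GC. Lysosomal genes had a median GC of 52.5% and matrix genes 57.5%, but clustered histone genes, which rose, had 56.7% and NF-kB genes 55.8%, against 49.2% for all tested genes. The part of GC or span in any list's change was not tested.

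**Figure D5:**
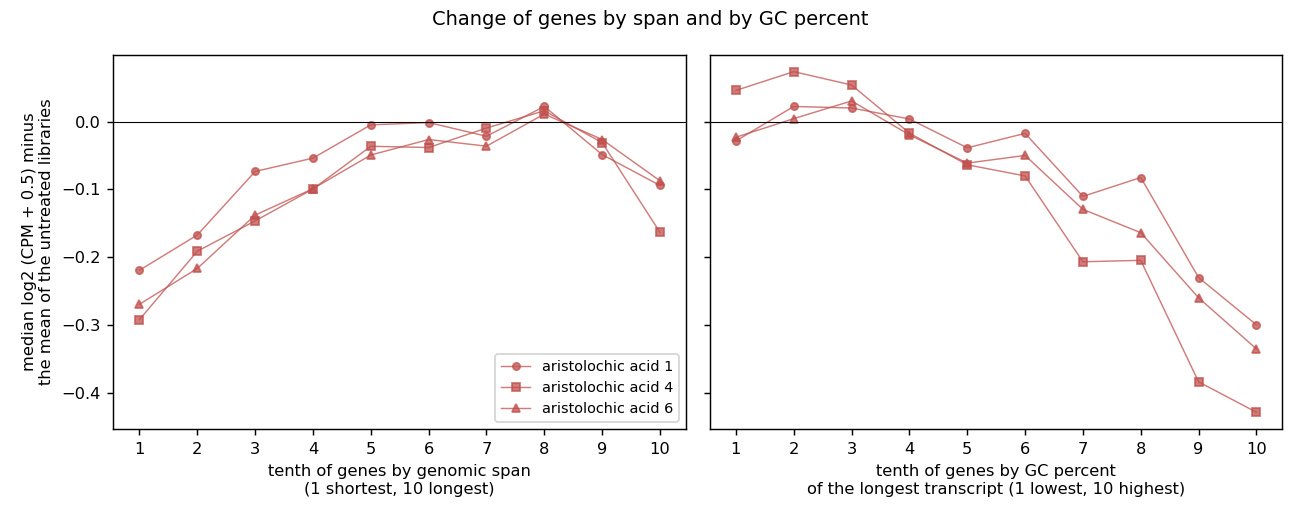
Median over genes of log2 (CPM + 0.5) minus the mean of the untreated libraries in each treated library, for 10 equal bins of genes by genomic span (left) and by GC percent of the longest transcript (right). The shortest bin lies at -0.22, -0.29 and -0.27 and the most GC-rich bin at -0.30, -0.43 and -0.33 in replicates 1, 4 and 6.

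Among all 176 symbol families, the 2 highest medians belonged to copies that reads cannot separate well. Of 11 NPIPB genes 10 rose and none fell (median 1.74), and of 12 NBPF genes 10 rose and none fell (0.78); both are multicopy families of primate segmental duplications, so the values of single members are uncertain. KRT genes had 7 rises and no fall among 11 (0.67), and symbols beginning with H and a digit, histones with H6PD, 22 rises and 3 falls among 45 (0.61). At the low end stood, besides CHST and the B glycosyltransferases, SAMD (2 rises and 7 falls among 12, median -0.97), PCDHB protocadherins (no rise and 4 falls among 11, -0.90) and MFSD transporters (2 and 8 among 15, -0.60). In the SAMD family the interferon-induced neighbours SAMD9 and SAMD9L fell from 100.2, 96.1 and 118 CPM to 22.2, 24.03 and 21.3 CPM and from 5.47, 5.54 and 6.88 CPM to 1.54, 0.85 and 1.29 CPM, and SAMD4A, an RNA-binding repressor, rose from 33.5, 37.2 and 33.97 CPM to 104, 66.99 and 64.9 CPM. MFSD12 fell from 314, 318 and 296 CPM to 157, 123 and 158 CPM. These last named members were chosen after their values were seen.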

How the data were processed

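RNA of 9 HK-2 cell libraries was measured as read counts per gene, and 6 libraries are described. The authors deposited a table with counts and FPKM per gene and library, per the file headers. The submitters' processing notes name CASAVA 1.8, HISAT2, SAMtools 1.3.1, edgeR and the mouse build mm10, although the table holds human genes with GRCh38 positions. Strand use in counting and the RNA selection were not found in these notes.

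The counts as deposited were fitted with edgeR 4.0.16 in R 4.3.3 (TMM factors, filterByExpr with a minimum count of 10 and a minimum total of 15, quasi-likelihood test, 9 libraries in 3 groups, 6 residual degrees of freedom). The contrast was aristolochic acid minus untreated, and p-values were adjusted by Benjamini-Hochberg over all 18267 tested genes, with a threshold of 0.05. Genes with an identifier but no symbol were kept in library sizes. Levels are counts per TMM-scaled library size (CPM). The deposited FPKM values were used only to compare a gene with its upstream neighbour per length. Strands came from GENCODE release 29, which held 92.9% of the gene IDs, and promoters from RefSeq (GRCh38.p14).

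Named genes were the 10 largest rises and falls at a mean of 5 CPM or more, the 10 most abundant that rose and fell, the 8 near-silent genes with the highest treated level, and, per list, up to 4 members with the largest change and the first 2 members written. Some of these genes are not reported here. The gene lists, members and rules were chosen with earlier results of these data known. Gene arrangement, GC percent, the shares by level and the largest rises from 5 CPM were chosen for description after the data were seen. Alternatives were DESeq2 1.42.0, RLE factors, library totals, 2 other filters, 6 libraries only, the label numbers as a block, other thresholds and distances, and leaving out each library. The fit and the locus classes were tested on simulated data. Wilson intervals cover counting over genes only.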

Additional observations from a re-analysis of the deposited data

Results flagged for a closer look

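The 3 libraries from cells that overexpressed MYDGF and also received aristolochic acid entered no comparison above, and both locus measures stood apart from the untreated libraries in them. The 179 near-silent genes past the 3′ end of an active gene summed to 154.0, 86.3 and 120.9 CPM in MYDGF replicates 1, 3 and 4, against 8.56 to 9.67 CPM untreated and 263.8 to 596.4 CPM with aristolochic acid alone. The median of the tail-to-tail genes minus that of the head-to-head genes was -0.17, -0.13 and -0.19 in these libraries, against -0.0068 to 0.0057 untreated and -0.31 to -0.23 with aristolochic acid alone. In both measures each of the 3 lay between the untreated libraries and the libraries with aristolochic acid alone. The near-silent genes were chosen for low levels in the untreated libraries, which places those lowest, and these differences were not tested.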

How the results depend on the processing

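The counts of rises and falls kept within 1.5 times under DESeq2, RLE factors, library totals, both other filters, the 6 libraries alone and each library left out, but not with the label numbers as a replicate block. With the replicate block all genes gave 2652 rises and 2410 falls and protein-coding genes 1943 and 2163. The untreated and aristolochic acid libraries share only the number 1, and libraries with the same number did not deviate together, so the numbers are shared labels and not a pairing. The share of near-silent genes rising past a 3′ end was 34.1% within 50 kb and 43.0% to 54.2% without any 1 library. The shortest span bin was at -0.22 with near-silent genes kept in and at -0.23 with RLE factors and with DESeq2. Tail to tail, 19.7% fell 2-fold within 5 kb, 13.6% within 50 kb and 20.4% with partners of 20 CPM or more, and the difference of medians was -0.15 within 50 kb and -0.33 with such partners. At 1 to 5 CPM the share rising was 39.2% within 50 kb. Over all rises the motif shares were 3.36% for AP-1 and 2.20% for the ATF4 element. Of 394 genes named with values, 360 had passed; none of these changed direction in any of 13 alternatives and 76 lost the call in at least 1, most often with the replicate block, which ended it for NQO1, BRCA1, APOL3, CDKN1A and MYC among others. Leaving out 1 library ended it for 24 genes: ACTB, ACTG1, ACVR2B, CDKN1A, CERS2, COPA, ERCC6, KLF4, KRT19, MRPL42, MYC, NFKBIA, PKM, POLK, PTBP1, SLC7A6, SMC1A, SQSTM1, SRSF1, SRSF10, TUBA1A, UBE2A, ULK1 and WNT2B. Of the genes that had not passed, 8 did in at least 1 alternative: JUN (adjusted p = 0.035 with the 6 libraries only), FBL (0.010 with those, 0.043 with DESeq2), CCL2 (0.0450 with RLE, 0.0498 with library totals, 0.0491 with mean CPM at least 1) and NOTCH1 (0.0494 with RLE, 0.032 with DESeq2), and, without 1 library, CCL2, CHST3, IFT140, KLF6, NOTCH1 and ZNF10. Genes that had not passed changed sign near 0 (log2 changes). With 6 libraries only, PHGDH 0.0042, RAB10 0.0056, TYMS 0.023. With DESeq2, PHGDH 0.013, RAB10 0.016, TYMS 0.032. With RLE, PHGDH 0.013, RAB10 0.015, TYMS 0.033. With library totals only, TYMS 0.016. With mean CPM at least 1, TYMS 0.017. With no filter, ATF4 -0.0044, ATP6V0A1 -0.020, PSMA1 -0.0089. With replicate block, ATP6V0A1 -0.015, B2M 0.21, KLF6 0.052, MRPL10 -0.27, PSMA1 -0.13, RAB11A 0.13, RELA 0.24, SPTLC1 0.13, TYMS 0.025, VIM -0.020. Without 1 library each, such genes ranged as follows: ATF4 -0.032 to 0.071, ATP6V0A1 -0.055 to 0.092, B2M -0.29 to 0.15, CXCL1 -0.11 to 0.202, H1-2 -0.017 to 0.17, MRPL10 -0.14 to 0.62, PHGDH -0.089 to 0.043, PSMA1 -0.017 to 0.086, RAB10 -0.053 to 0.024, RAB11A -0.35 to 0.12, RELA -0.27 to 0.15, RRM2 -0.398 to 0.010, SPTLC1 -0.19 to 0.11, TYMS -0.039 to 0.038, VIM -0.012 to 0.23. The causes were not tested.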
